A study of Homo sapiens with 24 samples.

Results

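The 42 genes described here encode the kinases, checkpoint proteins, kinetochore subunits and motors with which a cell enters mitosis, builds its spindle, separates its chromosomes and divides. They were chosen by name, with earlier results of these data known. The 42 gene symbols were looked up in the symbol column of the deposited count table, and all 42 were present among its 39786 genes. The list was read in 7 classes, namely cyclins and cyclin-dependent kinase control (7 genes), mitotic kinases and their partners (7), spindle checkpoint and anaphase (8), kinetochore (7), kinesins and spindle (8), cytokinesis (3) and chromosome-associated proteins (2). In each cell line 41 of the 42 had enough counts to be tested, and KIFC1 had not.

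As background, entry into mitosis is driven by CDK1 bound to B-type cyclins, and Polo-like and Aurora kinases then act on centrosomes, kinetochores and the spindle. The spindle checkpoint holds back the anaphase-promoting complex until kinetochores are attached to microtubules, after which securin and cyclin B are destroyed and separase is freed. Most of these genes are transcribed in a wave in G2 and mitosis, under the MuvB complex with MYBL2 and FOXM1, and are low in cells that have left the cycle.

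The series concerns mTORC1 signalling and resistance to neratinib in HER2-mutant cancers. Neratinib is an irreversible inhibitor of the EGFR, ERBB2 and ERBB4 kinases. The human cell lines were the bladder cancer line 5637 and the ovarian cancer line OVCAR8. Of each there were neratinib-resistant (NR) cells and the parental cells they derive from. Messenger RNA was sequenced from 24 libraries, 3 in each of 8 groups. The 5637 groups were NR cells given 600 nM neratinib for 24 h, NR cells without drug (control), parental cells given 600 nM neratinib for 24 h, and parental control cells. The OVCAR8 groups were the same with 1 µM neratinib for 24 h. All NR cells, control and re-treated alike, were seeded after 1 week off the drug. Whether an NR line is a clone or a pool is not given in the sources used here. The 3 libraries of a group came from dishes in triplicate, and the labels do not say that these were separate cultures. The p-values therefore measure no more than the spread among 3 dishes, which may be technical. A lower value in such bulk libraries can reflect fewer cells in G2 and mitosis or less RNA in each of them, and these cannot be told apart.

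Library totals ran from 23.8 to 48.5 M counts. The library of parental control replicate 2 of OVCAR8 stood apart: genes longer than 8 kb held 14.1% of its counts, where this share was 20.4% to 21.2% in the rest of the OVCAR8 libraries. The OVCAR8 counts of called members in each comparison are therefore given with and without it. Other OVCAR8 values are from all libraries unless stated. These include counts of groups that do not overlap, other gene lists, correlations of fold changes, promoter medians and likeness to CCNB1. The lines carried epithelial markers. CPM is the usual unit of counts scaled to the library total. In 5637 TP63 ran from 59.2 to 237 CPM, and in OVCAR8 PAX8 ran from 69.2 to 157 CPM and KRT8 from 1220 to 3430 CPM. Of the Mullerian markers of OVCAR8, SOX17, EMX2 and MECOM were at or near 0, as were the epithelial genes CDH1 (at most 1 CPM) and KRT19 (at most 1.69 CPM). WT1, also a Mullerian marker, had a median of 2.24 CPM in OVCAR8 and a higher one, 10.6 CPM, in 5637. MECOM had a median of 32.4 CPM in 5637, so PAX8 alone of these markers set OVCAR8 clearly above 5637 (median 106 and 22.1 CPM). KIFC1, a minus-end kinesin that clusters centrosomes, had 0 to 6 counts in a library at its chromosome 6 entry, where up to 84 counts lay at an entry of the same symbol on the contig GL000255.1, so its level is uncertain and it was left out.

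Marker levels differed between NR and parental libraries. The summed level of 5 urothelial markers was 813 to 859 CPM in NR control and 4590 to 4700 CPM in parental control libraries of 5637, and 1530 to 1640 CPM in NR neratinib and 5010 to 5320 CPM in parental neratinib libraries. The 6 epithelial markers summed to 4660 to 5070 CPM in NR control and 9410 to 10100 CPM in parental control libraries of 5637, and to 2570 to 2750 CPM in NR control and 4370 to 6580 CPM in parental control libraries of OVCAR8. Of the fibroblast markers, COL1A1 (717 to 1260 CPM) and PDGFRB (17 to 51.4 CPM) were present in OVCAR8 while COL3A1 and DCN were near 0. The 4 fibroblast markers summed to 44 to 49.5 CPM in NR control and 134 to 140 CPM in parental control libraries of 5637, and to 875 to 969 CPM in NR control and 1160 to 1290 CPM in parental control libraries of OVCAR8. The 5 Mullerian markers summed to 76.5 to 87.5 CPM in NR control and 129 to 162 CPM in parental control libraries of OVCAR8. In 5637 they summed to 102 to 109 CPM in NR control and 56.1 to 58.7 CPM in parental control libraries. The 5 leukocyte markers summed to at most 4.20 CPM in a library, and the endothelial genes CDH5 and VWF had at most 0.259 and 0.994 CPM. The part of these marker differences in the comparisons of NR with parental cells was not tested.

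Gene starts of 6 members are printed as a description. All 6 were picked for a match of the letters TTTGAA, so that they share these letters follows from the choice. In both parental lines 39 of the 41 tested genes were lower on neratinib, but MKI67, 1 of the 6 printed, did not pass in parental OVCAR8. The capitals mark TTTGAA (or TTCAAA, the same letters on the opposite strand), the core of the CHR element, and CCAAT (or ATTGG), both searched on both strands within 250 bases before each RefSeq gene start. Shown are the members with a TTTGAA match and the highest mean CPM. Each is part of the RefSeq promoter in GRCh38.p14, written from 5′ to 3′ in the direction of its gene: TOP2A at chr17:40418008-40418107 (minus strand), MKI67 at chr10:128126424-128126512 (minus), ANLN at chr7:36389782-36389861 (plus), CDC20 at chr1:43358856-43358955 (plus), PRC1 at chr15:90994536-90994615 (minus) and PLK1 at chr16:23678800-23678888 (plus).
TOP2A: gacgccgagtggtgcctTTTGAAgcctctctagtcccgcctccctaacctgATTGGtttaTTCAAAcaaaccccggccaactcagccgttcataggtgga
MKI67: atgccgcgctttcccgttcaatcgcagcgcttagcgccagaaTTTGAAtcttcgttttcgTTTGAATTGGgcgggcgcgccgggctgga
ANLN: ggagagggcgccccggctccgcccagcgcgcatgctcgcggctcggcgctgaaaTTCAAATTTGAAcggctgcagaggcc
CDC20: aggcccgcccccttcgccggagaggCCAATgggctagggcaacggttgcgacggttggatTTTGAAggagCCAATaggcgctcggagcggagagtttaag
PRC1: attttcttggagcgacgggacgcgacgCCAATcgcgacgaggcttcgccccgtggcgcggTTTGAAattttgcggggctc
PLK1: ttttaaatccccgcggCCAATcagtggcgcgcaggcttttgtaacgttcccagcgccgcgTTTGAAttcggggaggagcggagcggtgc
In MKI67 the second TTTGAA and ATTGG share letters, and in ANLN TTCAAA and TTTGAA stand side by side. RefSeq promoters matched 36 of the 42 members by symbol. TTTGAA was found in 20 of them (55.6%), against 16.1% of the 27305 genes with a promoter, and CCAAT in 30 (83.3%), against 37% of all genes. Both were found in 18 members (50%), against 5.79% of all genes. A match is a description of these letters, not a site. Members with and without TTTGAA moved by similar amounts on the drug in parental 5637. The median log2 fold change there was -0.83 for 20 genes with it and -0.86 for 15 without. In parental OVCAR8 it was -0.61 with it and -0.74 without. Those OVCAR8 medians include parental control replicate 2, whose CPM departed with gene length, and were not taken without that library. No test was made in either line.

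In parental 5637 cells, all 41 tested genes fell on neratinib, and for all 41 the 3 neratinib libraries lay below the 3 control libraries. Among all 18307 genes tested in this line 23.5% fell, 23.9% rose, 47.3% changed in either direction, and 61.3% had groups that did not overlap in CPM. The median log2 fold change of the members was -0.84, from -1.14 for PTTG1 to -0.29 for CDC25B, where the median of all genes was 0.02. Together the members took 0.422% to 0.437% of all counts in parental neratinib libraries and 0.687% to 0.714% in parental control libraries. Fold changes here are log2 values from edgeR after TMM scaling, and a gene is said to have risen or fallen where the quasi-likelihood F-test gave a Benjamini-Hochberg adjusted p below 0.05. CPM values are scaled to the library total alone, and under that scaling without TMM all 41 genes also fell (median -0.73, with the median of all genes at 0.13).

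Of the cyclins, CCNB1 (ENSG00000134057.10, hg19 chromosome 5, 68462837 to 68474072), the mitotic B cyclin, had 102, 111 and 108 CPM in parental 5637 neratinib libraries, against 215, 217 and 207 CPM in parental control libraries. The groups were far apart, and the fall was -1.10 ± 0.06 (log2, SE, n = 3 each, edgeR adjusted p = 6.1e-10). Its kinase CDK1 had 37.5, 35.9 and 41.9 CPM with neratinib, against 70, 72.3 and 69.5 CPM in controls (log2 fold change -0.98, edgeR adjusted p = 7.3e-07). CCNA2, the cyclin of S phase and G2, fell by 0.96 on the log2 scale, and CCNB2, the second B cyclin, by 0.71. The phosphatases that activate CDK1 fell less, CDC25C by 0.49 and CDC25B by 0.29. FOXM1, the transcription factor of this gene wave, fell by 0.50.

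Of the mitotic kinases, PLK1, which acts at centrosomes and kinetochores, had 92.8, 93.1 and 85.4 CPM in parental 5637 neratinib libraries, against 153, 151 and 153 CPM in controls (log2 fold change -0.86, edgeR adjusted p = 1e-07). AURKA, the spindle pole kinase, had 78.9, 80.7 and 78.6 CPM with neratinib, against 148, 151 and 149 CPM in controls (log2 fold change -1.02, edgeR adjusted p = 1.1e-09). Neither kinase overlapped between the groups. TPX2, which activates AURKA, fell by 0.83. The 4 subunits of the chromosomal passenger complex fell as well, the kinase AURKB by 0.80, its scaffold INCENP by 0.97, borealin (CDCA8) by 0.81 and survivin (BIRC5) by 0.65.

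The largest fall among the 41 was that of PTTG1, which encodes securin, the inhibitor of separase. It had 97.8, 102 and 101 CPM in parental 5637 neratinib libraries, against 207, 207 and 200 CPM in controls, and fell by 1.14 ± 0.05 (log2, SE, edgeR adjusted p = 2e-10). Checkpoint genes fell with it, MAD2L1 by 1.05, BUB1 by 0.89, BUB1B by 0.83 and the kinase TTK by 0.68. CDC20, the activator of the anaphase-promoting complex that the checkpoint restrains, fell by 0.91, and ESPL1, which encodes separase, by 0.68. BUB3, the checkpoint subunit that brings BUB1 and BUB1B to kinetochores, moved least in this class. It had 99.3, 95.4 and 107 CPM with neratinib, against 124, 121 and 121 CPM in controls, which did not overlap (log2 fold change -0.38, edgeR adjusted p = 1.5e-04).

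At the kinetochore, the 4 subunits of the NDC80 complex, which hold the microtubule, fell by similar amounts: NDC80 by 0.86, NUF2 by 0.86, SPC24 by 0.89 and SPC25 by 1.04. SPC25 was the lowest member of all (2.51, 2.59 and 2.92 CPM with neratinib, against 5.23, 5.67 and 4.47 CPM in controls). CENPF fell by 0.77, the centromeric histone CENPA by 0.69 and the kinetochore motor CENPE by 0.61. Of the kinesins, KIF20A, which carries the passenger complex to the central spindle, had 98.7, 103 and 98.9 CPM in parental 5637 neratinib libraries, against 190, 187 and 186 CPM in controls (log2 fold change -1.01, edgeR adjusted p = 5.1e-10). KIF23, a subunit of centralspindlin, fell by 0.87, the bipolar spindle motor KIF11 by 0.86 and the microtubule depolymerase KIF2C by 0.82. KIF18A and KIF4A, which act on chromosome movement and on the midzone, fell least among the kinesins, by 0.47 and 0.44.

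For cytokinesis, the furrow scaffold ANLN had 219, 218 and 226 CPM in parental 5637 neratinib libraries, against 458, 449 and 421 CPM in controls (log2 fold change -1.11, edgeR adjusted p = 2.6e-09). The midzone crosslinker PRC1 fell by 0.81 and the RhoA exchange factor ECT2 by 0.78. The proliferation marker MKI67 had 372, 377 and 379 CPM with neratinib, against 630, 665 and 644 CPM in controls (log2 fold change -0.89, edgeR adjusted p = 6.7e-09). TOP2A, the topoisomerase that untangles sister chromatids, fell by 0.84, and NUSAP1, which bundles spindle microtubules, by 0.85.

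**Figure D1:**
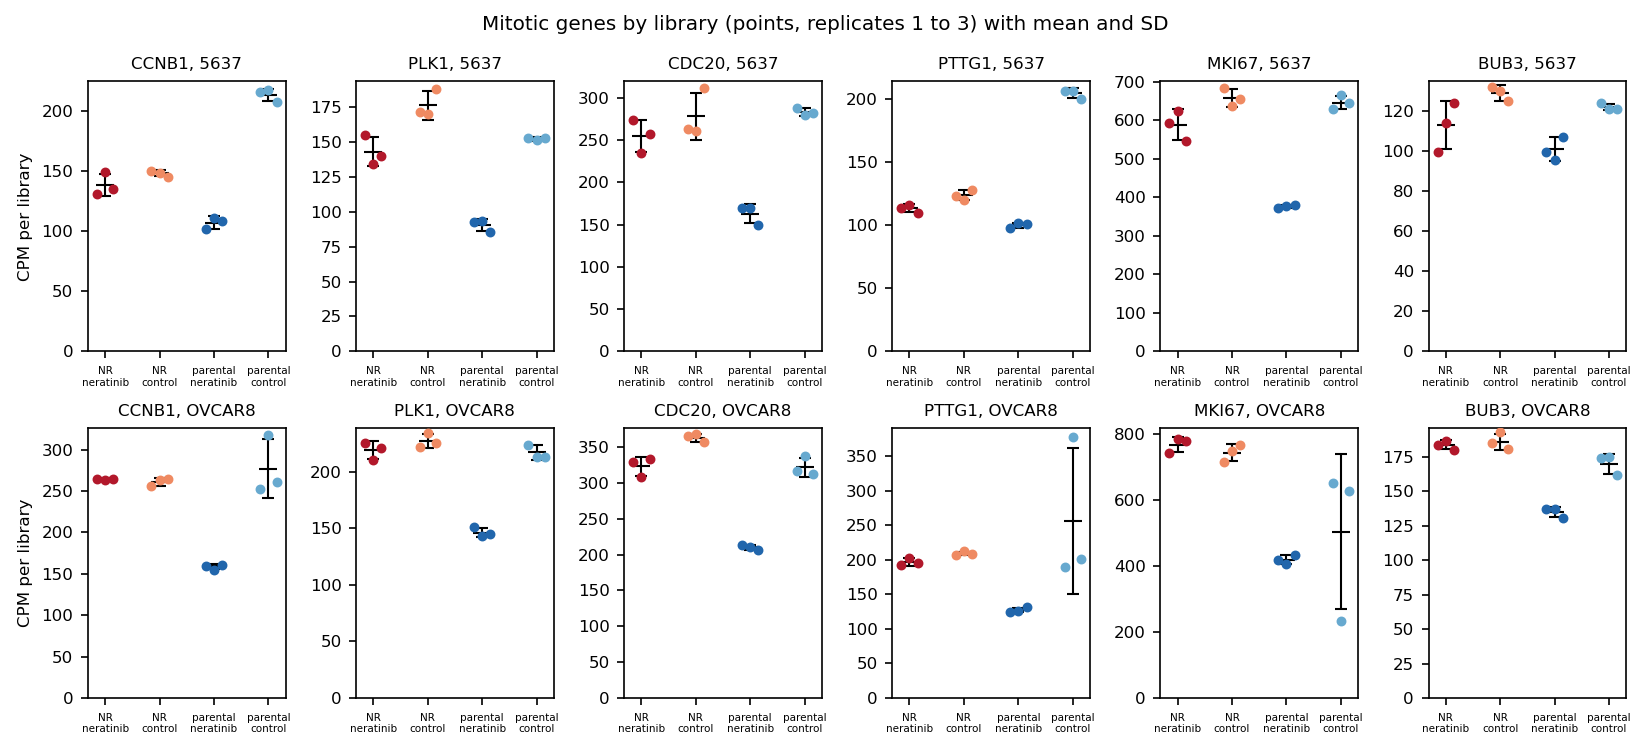
CPM of 6 mitotic genes in every library (points, replicates 1 to 3, with group mean and SD), 5637 above and OVCAR8 below. Parental neratinib groups have the lowest mean of each gene in each line, as for CCNB1 at 107 CPM in parental 5637 with neratinib, against 213 CPM in parental control. MKI67 and PTTG1 show the wide spread of OVCAR8 parental controls, in which replicate 2 stood at 233 and 378 CPM.

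In parental OVCAR8 cells, 39 of the 41 tested genes fell on neratinib and 0 rose, where 16.3% of all 18072 genes tested in this line fell, 16.2% rose and 32.5% were called in all. The median log2 fold change of the members was -0.62, against 0.01 for all genes. The groups did not overlap for 30 of the 41 genes (44.7% of all genes). The members took 0.514% to 0.534% of the counts in parental neratinib libraries and 0.665% to 0.788% in parental control libraries. FOXM1 (-0.12, 95% interval -0.37 to 0.13, edgeR adjusted p = 0.45, with 285, 281 and 275 CPM on neratinib against 339, 206 and 318 CPM in controls) and MKI67 (-0.34, 95% interval -0.87 to 0.19, edgeR adjusted p = 0.32) did not pass. Without parental control replicate 2, all 41 genes fell, with a median of -0.64 and a range of -0.91 to -0.25, where 24.9% of all genes fell.

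CCNB1 had 159, 155 and 161 CPM in parental OVCAR8 neratinib libraries, against 252, 318 and 261 CPM in parental control libraries. All control libraries lay above, and the fall was -0.91 ± 0.11 (log2, SE, n = 3 each, edgeR adjusted p = 8e-05). CDK1 had 68.3, 68.3 and 71.5 CPM with neratinib, against 112, 130 and 112 CPM in controls (log2 fold change -0.87, edgeR adjusted p = 5.3e-05). PLK1 had 151, 143 and 145 CPM with neratinib, against 224, 213 and 213 CPM in controls (log2 fold change -0.67, edgeR adjusted p = 2.4e-05). These genes did not overlap between the groups. Survivin (BIRC5), with 55.2, 57.2 and 56.1 CPM on neratinib against 87.2, 115 and 90.3 CPM in controls, fell by 0.91. That was the largest fall of the kinase class with all libraries, but without parental control replicate 2 INCENP (-0.79) and AURKA (-0.73) fell more than BIRC5 (-0.71). SPC24 (31.4, 32 and 29.4 CPM with neratinib, against 45.2, 67.3 and 46.3 CPM) fell by 0.89 and KIF2C (101, 97.6 and 103 CPM, against 167, 182 and 170 CPM) by 0.88.

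Securin was the lowest of the list by fitted fold change only with parental control replicate 2, without which PTTG1 stood at -0.67 and MAD2L1 (-0.91), ANLN (-0.90) and BUB1 (-0.84) fell further. PTTG1 had 125, 126 and 131 CPM in parental OVCAR8 neratinib libraries, against 190, 378 and 201 CPM in controls (log2 fold change -1.13 ± 0.23, SE, edgeR adjusted p = 0.003). ANLN, with 293, 291 and 303 CPM on neratinib against 518, 297 and 550 CPM in controls, fell by 0.70, and TOP2A, with 358, 355 and 376 CPM against 499, 319 and 518 CPM, fell by 0.38. In both, control replicate 2 lay among or below the neratinib libraries. MKI67 showed the widest gap, with 418, 406 and 432 CPM on neratinib against 651, 233 and 627 CPM in controls. BUB3 had 137, 137 and 131 CPM on neratinib against 174, 175 and 162 CPM in controls (log2 fold change -0.44, edgeR adjusted p = 8.9e-04).

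The place of that library depended on gene length. Against the mean of the other parental controls, its log2 ratio of CPM was below 0 for all 8 members longer than 6 kb, from -1.45 in MKI67 (12807 bases) to -0.28, and above 0 for the 3 members shorter than 2 kb (0.13 to 0.30). Across the 41 members its ratio had a Pearson correlation of -0.78 with log2 gene length. In groups other than its own these correlations lay between -0.37 and 0.46. Genes in 1 library share its RNA and depth, so this is a description with no test. What made the library differ was not tested.

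**Figure D2:**
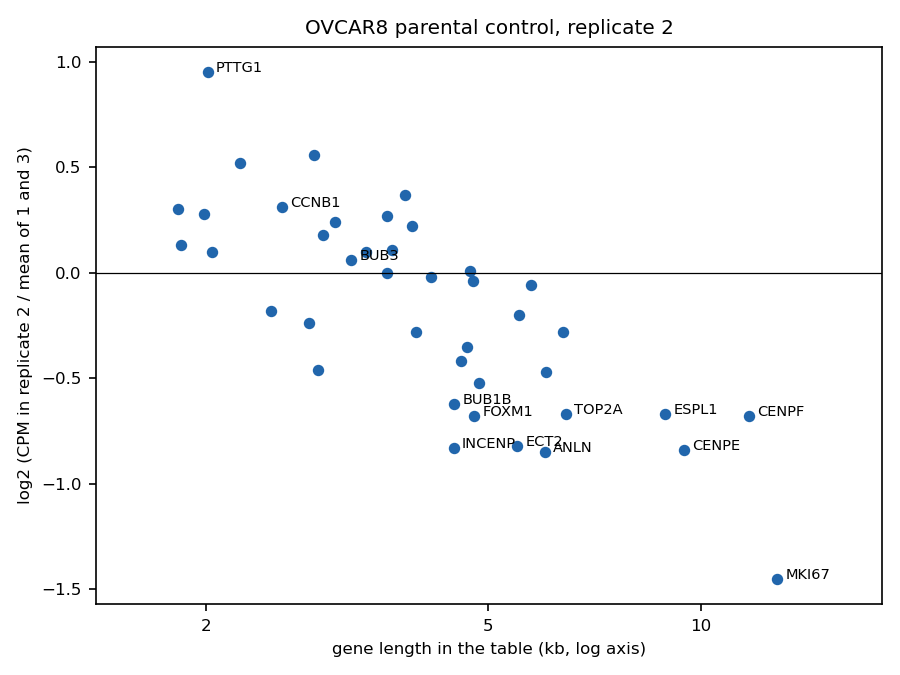
OVCAR8 parental control replicate 2 set against the mean of parental control replicates 1 and 3, as a log2 ratio of CPM, by gene length in the deposited table (kb, log axis), 1 point for each of 41 members. All 8 members over 6 kb lie below 0 and the 3 members under 2 kb above, with both signs between these lengths, from MKI67 at -1.45 to PTTG1 at 0.95.

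The parental lines share no library, and 39 members fell in both, with 0 called in opposite directions. The fall was larger in 5637 for 33 of the 41 members. Across the 41 genes the fold changes of the lines had a Pearson correlation of 0.65 and a Spearman correlation of 0.61, given as a description since genes within a library are not independent. The difference between the lines itself, tested over all 24 libraries, passed for CCNA2 (0.34, 95% interval 0.13 to 0.56, edgeR adjusted p = 0.036) and KIF20A (0.47, 95% interval 0.29 to 0.66, edgeR adjusted p = 0.0012), both of which fell less in OVCAR8. These 2 of 41 members compare with 5.46% of all genes that were higher by this test, 4.83% that were lower and 10.3% in all. Without parental control replicate 2 of OVCAR8, 11 members passed, all in the same direction, where 9.69% of all genes did, and leaving out any other single library gave 1 to 6. Doses differed between the lines, at 1 µM in OVCAR8 and 600 nM in 5637.

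In NR cells the drug moved these genes much less. In NR 5637, 22 of 41 members fell and 0 rose, where 21.1% of all genes fell, 18.4% rose and 39.5% were called in all, and their median log2 fold change was -0.21 (all genes 0). The members took 0.609% to 0.674% of the counts in NR neratinib libraries and 0.648% to 0.682% in NR control libraries. The groups did not overlap for 15 members (45.9% of all genes). This count rests on the scaling: by library size alone, 8 members fell and 5 rose, with a median of -0.08, while the median of all genes moved to 0.12 and rising genes made up 67.4% of calls in place of 46.6%. In a joint fit of all 24 libraries 10 members were called.

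The largest of these changes in NR 5637 was that of MAD2L1, the checkpoint inhibitor of CDC20, with 40.2, 47.3 and 57.9 CPM in NR neratinib libraries against 59.4, 69.6 and 53.7 CPM in NR control libraries. Its groups overlapped (log2 fold change -0.46, 95% interval -0.70 to -0.22, edgeR adjusted p = 0.004). PLK1 did not overlap, with 155, 134 and 140 CPM on neratinib against 171, 170 and 188 CPM in NR controls (log2 fold change -0.43, edgeR adjusted p = 1.8e-04). BUB3 had 99.6, 114 and 124 CPM against 132, 130 and 125 CPM and fell by 0.33, close to its fall of 0.38 in parental cells. ECT2 (112, 139 and 139 CPM on neratinib, against 146, 159 and 138 CPM) fell by 0.31, MKI67 (594, 625 and 545 CPM, against 685, 637 and 654 CPM) by 0.29, and CDK1 (53.3, 67.6 and 70.6 CPM, against 72.3, 79 and 60.9 CPM) by 0.28. SPC24 (24.5, 24 and 25.8 CPM, against 27.2, 29.6 and 26.1 CPM) fell by 0.28, and KIF23 (81.4, 93.3 and 92.2 CPM, against 96.5, 104 and 92 CPM) by 0.26. CCNB1, with 131, 149 and 135 CPM on neratinib against 150, 148 and 145 CPM in NR controls, fell by 0.22.

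By class in NR 5637, 5 of 7 kinases and partners, 6 of 8 checkpoint and anaphase genes and all 3 cytokinesis genes fell. So did 3 of 7 genes of cyclins and cyclin-dependent kinase control and 2 of 2 chromosome-associated genes. Among kinetochore genes 1 of 7 (SPC24) fell, and among kinesins and spindle genes 2 of 7 (KIF23 and KIF2C). The last counts are near the 21.1% of all genes that fell. These class counts use TMM scaling, on which the total depends as given above. KIF20A, which fell by 1.01 in parental 5637, stood at -0.01 in NR 5637, with 154, 156 and 150 CPM on neratinib against 143, 137 and 145 CPM in NR controls. The phosphatase CDC25B (0.16, 277, 243 and 262 CPM against 209, 203 and 229 CPM) and the kinesin KIF18A (0.17) were among the 7 members with a positive fold change, of which 0 passed. NR neratinib replicate 1 of 5637 lay below the mean of the other NR neratinib libraries by as much as 0.64 on the log2 scale in a member.

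In NR OVCAR8, 0 of 41 members were called on neratinib by edgeR and 0 by DESeq2, with 2 higher and 1 lower at an unadjusted p below 0.05 (KIF18A at 0.28, KIF4A at 0.18 and CDC20 at -0.18). Among all genes 1.39% were called, 0.642% higher and 0.747% lower. The median of the members was 0.04 and their range -0.18 to 0.28, and the groups did not overlap for 18 of them (36.6% of all genes). CCNB1 had 265, 263 and 265 CPM in NR OVCAR8 neratinib libraries, against 256, 263 and 264 CPM in NR control libraries (log2 fold change 0.00, 95% interval -0.23 to 0.24), and CDK1 120, 126 and 121 CPM against 116, 113 and 123 CPM (0.04, 95% interval -0.17 to 0.25). PLK1 had 225, 210 and 221 CPM against 222, 234 and 225 CPM (-0.07, 95% interval -0.22 to 0.07), and MKI67 741, 783 and 778 CPM against 715, 749 and 767 CPM (0.03, 95% interval -0.50 to 0.56). BUB3 had 184, 187 and 180 CPM against 185, 193 and 181 CPM. All these groups overlapped, and the intervals exclude falls as large as those of parental OVCAR8 for CCNB1, CDK1 and PLK1 but not for MKI67.

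The test with all 12 OVCAR8 libraries shares 1 estimate of the spread, which parental control replicate 2 widened: the biological coefficient of variation was 13% in OVCAR8 and 8.03% in 5637. Without that library, 4 members rose in NR OVCAR8 on neratinib (FOXM1 by 0.22, KIF11 by 0.14, KIF4A by 0.17 and KIF18A by 0.27, log2) and 3 fell (INCENP by 0.15, CDC20 by 0.19 and PTTG1 by 0.11), where 9.39% of all genes rose and 11.9% fell. The median was then 0.02. Between the lines, the drug effect in NR cells was higher in OVCAR8 for PLK1 (0.34), KIF23 (0.36) and MAD2L1 (0.48, edgeR adjusted p = 0.027), 3 of 41 against 5.06% of all genes higher, 4.79% lower and 9.84% in all, and for 15 without that library (11.2% of all genes). The count was 1 without NR control replicate 2 or NR neratinib replicate 2 of 5637, or without NR control replicate 1 or NR neratinib replicate 1 of OVCAR8. By library size alone 0 members passed this difference.

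**Figure D3:**
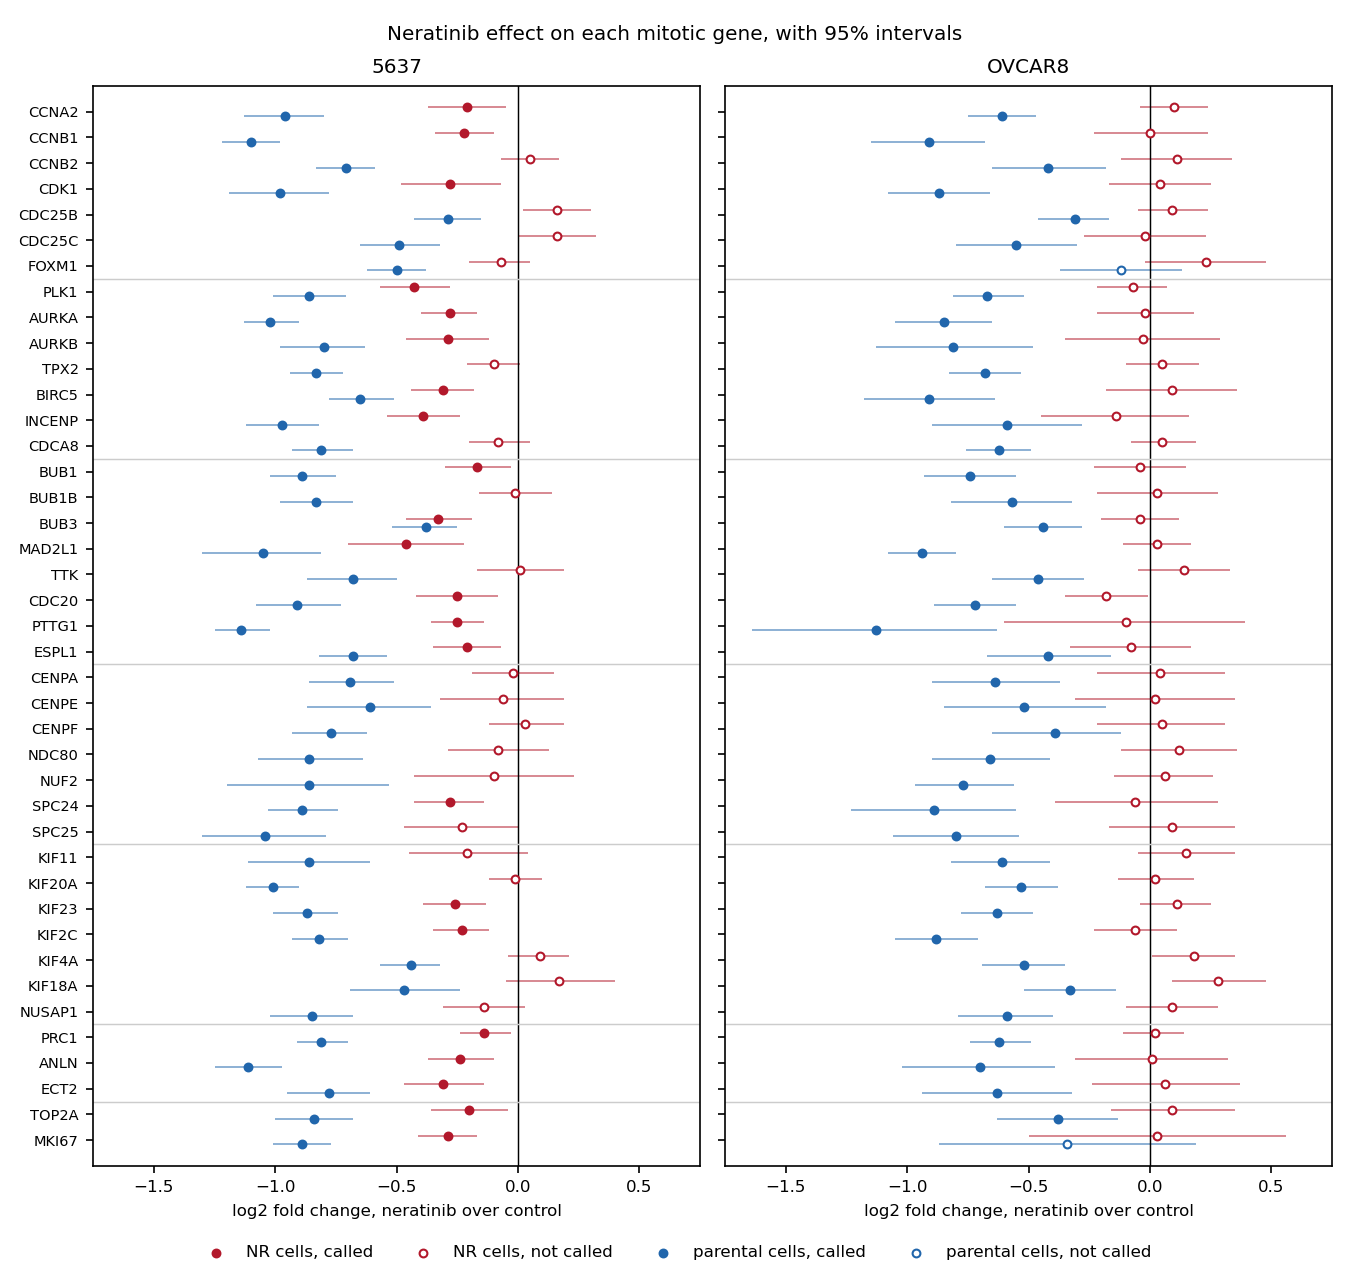
Log2 fold change on neratinib of each of 41 members with its 95% interval, NR cells (red) above parental cells (blue) for each gene, 5637 left and OVCAR8 right, filled where the edgeR adjusted p was below 0.05. Parental values lie left of NR values for all 41 genes in each line, from -1.14 to -0.29 in parental 5637, and NR OVCAR8 values lie around 0.

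Whether the drug acts differently in NR and parental cells was tested as an interaction. In 5637, 40 of 41 members had a higher (less negative) drug effect in NR cells and 0 a lower one, where 7.39% of all genes were higher, 6.48% lower and 13.9% called in all. The median difference was 0.66 (all genes -0.01). BUB3 did not pass (0.05, 95% interval -0.14 to 0.25, edgeR adjusted p = 0.77). KIF20A differed most, by 1.00 ± 0.07 (log2, SE, edgeR adjusted p = 3.1e-07), followed by PTTG1 (0.89), CCNB1 (0.88) and ANLN (0.87). CENPF differed by 0.81, AURKA by 0.73, CDK1 by 0.71, TOP2A by 0.64, MKI67 by 0.60 and PLK1 by 0.43. Set side by side, the drug effect was nearer to 0 in NR than in parental 5637 for all 41 members.

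In OVCAR8 the interaction passed for 29 of 41 members, all higher in NR cells, against 4.62% of all genes higher, 4.21% lower and 8.83% called in all, with a median of 0.68 (all genes -0.02). BIRC5 differed by 0.99 ± 0.17 (log2, SE, edgeR adjusted p = 0.0057), MAD2L1 by 0.97, CDK1 and CCNB1 by 0.91 each, SPC25 by 0.89, KIF2C by 0.82 and PRC1 by 0.64. PLK1 differed by 0.60 and, unlike in 5637, BUB3 passed with 0.40. Among the 12 that did not pass were PTTG1 (1.03, 95% interval 0.32 to 1.74, edgeR adjusted p = 0.071), both chromosome-associated genes, MKI67 (0.37, 95% interval -0.39 to 1.12) and TOP2A (0.47), and the longest kinetochore genes, CENPE (0.54) and CENPF (0.43). Leaving out parental control replicate 2 moved PTTG1 to 0.56, MKI67 to 0.68 and BIRC5 to 0.79, and all 41 passed, with a median of 0.67 and a range of 0.32 to 0.93, against 17% of all genes higher. With all libraries, the drug effect was nearer to 0 in NR than in parental OVCAR8 for 40 of 41 members. FOXM1 was the exception, at 0.23 in NR and -0.12 in parental cells. Without parental control replicate 2 FOXM1 stood at 0.22 in NR and -0.28 in parental cells, so it was then nearer to 0 in NR.

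**Figure D4:**
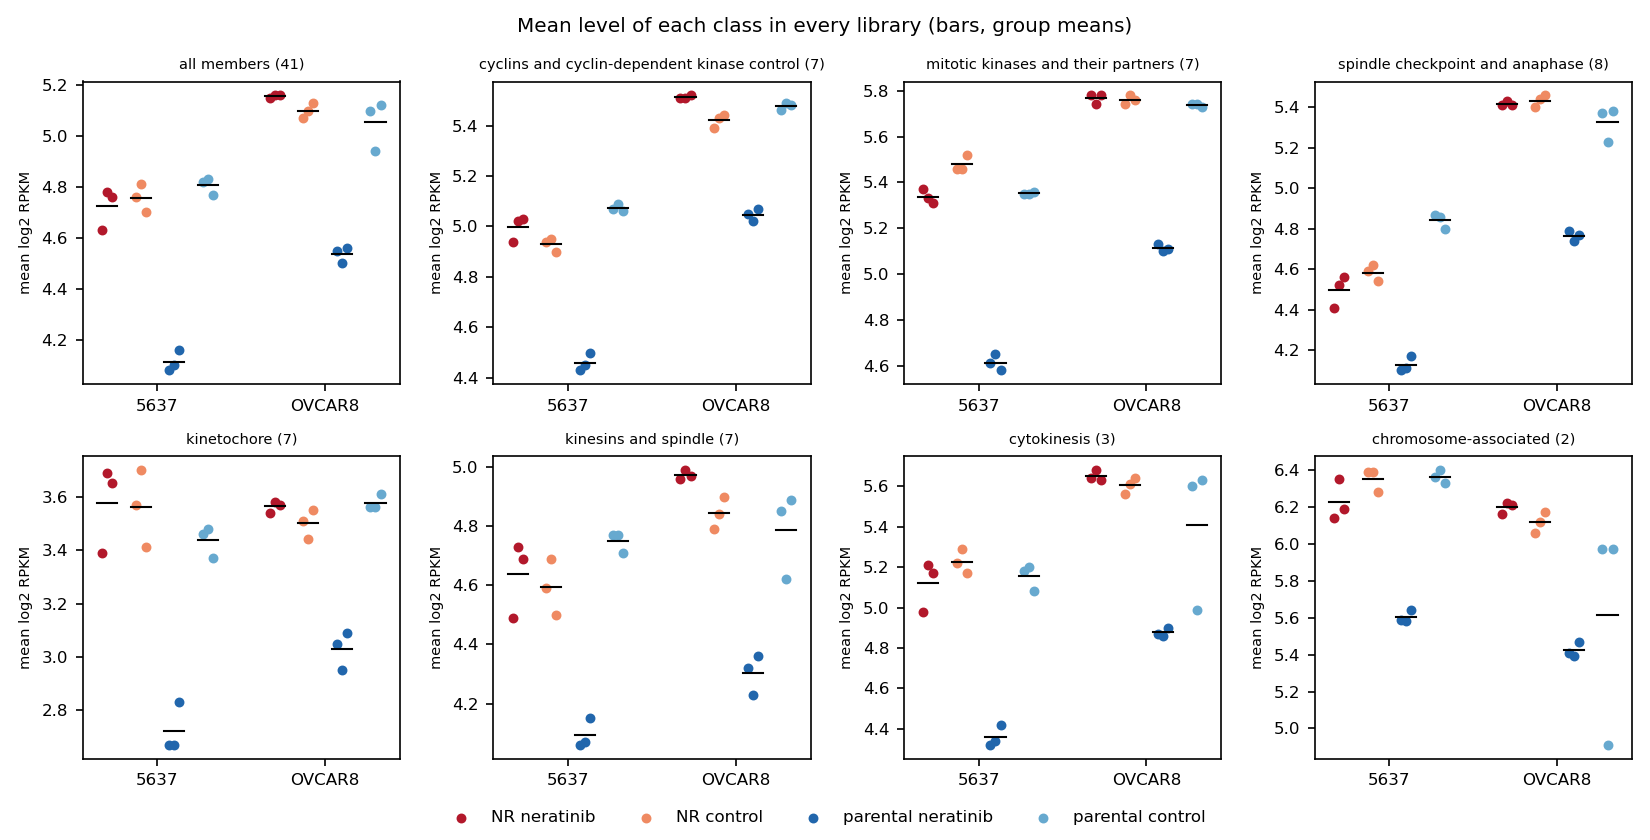
Mean log2 RPKM (CPM per kilobase of gene length) of the members of each class in every library, with group means as bars, 5637 left and OVCAR8 right. In each class the parental neratinib libraries lie lowest in 5637, and over all members they ran from 4.08 to 4.16, against 4.77 to 4.83 in parental control libraries. In OVCAR8 parental control replicate 2 drops furthest for the chromosome-associated and cytokinesis classes.

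With both on neratinib, NR cells held more of these transcripts than parental cells. This comparison shares its parental and NR neratinib libraries with the drug comparisons above, so it adds no independent evidence. In 5637, 34 of 41 members were higher in NR and 0 lower, where 28.8% of all genes were higher, 29.2% lower and 58.0% called in all. The median was 0.61 (all genes 0), and the groups did not overlap for 36 members (60.5% of all genes). CCNA2 was furthest apart, with 100, 111 and 120 CPM in NR neratinib libraries against 44.9, 43.5 and 54.3 CPM in parental neratinib libraries (log2 fold change 1.18, edgeR adjusted p = 3.7e-09). MAD2L1 was higher by 1.17 (21.3, 18.5 and 23.2 CPM in parental neratinib libraries), SPC25 by 1.10 (6.05, 6.06 and 5.52 CPM in NR neratinib libraries), BIRC5 by 0.94 (64.9, 70 and 66.6 CPM in NR, against 34.7, 33.9 and 34.1 CPM), ANLN by 0.92 (376, 465 and 447 CPM in NR) and KIF18A by 0.83 (37, 51.5 and 51.7 CPM in NR, against 25.6, 24.7 and 26.5 CPM). All 7 kinetochore genes were higher, with a median of 0.97. The fixed examples CDK1 (0.69), PLK1 (0.63), MKI67 (0.61) and CCNB1 (0.33) were also higher.

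The 7 members that did not pass after adjustment in this 5637 comparison were CCNB2 (0.09, 95% interval -0.03 to 0.21), AURKB (0.18, 0.01 to 0.35), BUB1B (-0.11, -0.25 to 0.04), BUB3 (0.13, -0.01 to 0.26), TTK (0.02, -0.16 to 0.20), ESPL1 (0.03, -0.11 to 0.17) and KIF23 (0.07, -0.07 to 0.20), so 4 of the 8 checkpoint and anaphase genes were among them. Of these 7, all but BUB3 were also lower in NR than in parental 5637 without drug. In OVCAR8, 38 of 41 members were higher in NR and 0 lower, against 14.6% of all genes higher, 16.4% lower and 31.0% called in all. The median was 0.66, and the groups did not overlap for all 41 (63.0% of all genes). KIF11, the bipolar spindle motor, was furthest apart (log2 fold change 1.08, edgeR adjusted p = 8.1e-06). It had 171, 174 and 171 CPM in NR neratinib libraries against 84.8, 79.3 and 86.4 CPM in parental neratinib libraries. ANLN was higher by 0.92 (531, 564 and 547 CPM in NR on neratinib), MAD2L1 by 0.89 (94.2, 98 and 93.5 CPM in NR, against 55, 51.7 and 51.4 CPM), CENPE by 0.88 (137, 143 and 133 CPM in NR, against 78, 69.1 and 82.7 CPM) and CDCA8 by 0.75 (152, 149 and 152 CPM in NR, against 94.1, 88.7 and 92.7 CPM). MKI67 was higher by 0.91, CDK1 by 0.86, CCNB1 by 0.77, PLK1 by 0.62 and BUB3 by 0.48. CDC25B (0.16, 95% interval 0.02 to 0.30), CENPA (0.32, 0.05 to 0.58) and NDC80 (0.26, 0.02 to 0.50) did not pass after adjustment. Parental control replicate 2 is in neither group, but it widens the shared spread, and without it all 41 passed (26.8% of all genes higher).

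Without drug, NR and parental 5637 differed in both directions. Of 41 members 12 were higher and 13 lower in NR cells, against 28.4% and 28.0% of all genes, so the share called (25 of 41) was near the 56.5% of all genes. The median was -0.03 (all genes 0). BUB1B, the checkpoint subunit BUBR1, was lowest, with 86.8, 91.6 and 78.3 CPM in NR control libraries against 163, 163 and 157 CPM in parental control libraries (log2 fold change -0.93 ± 0.07, SE, edgeR adjusted p = 1.4e-08). The groups did not overlap for 27 of the 41 members (64.3% of all genes). Next came PTTG1 (-0.74), CCNB2 (-0.67, with 67, 68.7 and 69 CPM in NR against 108, 113 and 101 CPM), TTK (-0.67), KIF23 (-0.55, with 96.5, 104 and 92 CPM in NR against 140, 145 and 137 CPM), CCNB1 (-0.54) and CENPF (-0.50, with 288, 304 and 252 CPM in NR against 400, 397 and 381 CPM).

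Higher in untreated NR 5637 was, first, BIRC5, with 77, 80.9 and 71 CPM in NR control libraries against 49.6, 46.7 and 52.8 CPM in parental control libraries (log2 fold change 0.60 ± 0.06, SE, edgeR adjusted p = 5.9e-07). MAD2L1 (0.57, with 59.4, 69.6 and 53.7 CPM in NR against 41.6, 40.6 and 39.3 CPM), ECT2 (0.43, with 146, 159 and 138 CPM in NR against 109, 114 and 102 CPM), CCNA2 (0.43, with 118, 117 and 115 CPM in NR against 83.4, 90.8 and 83.7 CPM), CENPE (0.42, with 128, 140 and 106 CPM in NR against 92.7, 96.8 and 87 CPM) and CENPA (0.40, with 25.8, 28.1 and 23.5 CPM in NR against 20.5, 18 and 19.6 CPM) followed. These are a cyclin, a checkpoint protein, an exchange factor and parts of the kinetochore. Smaller rises were those of SPC25 (0.29, with 6.44, 6.51 and 6.09 CPM in NR against 5.23, 5.67 and 4.47 CPM), NDC80 (0.25, with 69.3, 79.9 and 65.4 CPM in NR against 60.6, 61.2 and 57 CPM) and INCENP (0.23, with 184, 178 and 188 CPM in NR against 156, 155 and 154 CPM). PLK1 (0.20, with 171, 170 and 188 CPM in NR against 153, 151 and 153 CPM), KIF4A (0.16, with 102, 112 and 103 CPM in NR against 95.8, 93.9 and 90.8 CPM) and AURKA (0.13, with 161, 167 and 168 CPM in NR against 148, 151 and 149 CPM) were higher by the least. None of these 12 overlapped between the groups, but they were picked by being called, and 64.3% of all genes did not overlap either. The groups also differed in the urothelial marker sum given above (813 to 859 CPM in NR control, 4590 to 4700 CPM in parental control), whose part was not tested. CDK1 (-0.02, 95% interval -0.22 to 0.19), MKI67 (0.01, -0.11 to 0.13) and BUB3 (0.07, -0.06 to 0.21) did not pass. Partners of 1 complex went different ways: within the NDC80 complex NDC80 and SPC25 were higher and SPC24 (-0.27) lower, and among the passenger proteins BIRC5 and INCENP were higher and AURKB (-0.33) lower.

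Where a gene lies went with how it differed in this comparison, a pattern looked for after the values had been seen. The fold change of each member was set beside the median fold change of the other tested genes within 5 Mb (23 to 244 genes). In untreated NR against parental 5637 the 41 pairs had a Pearson correlation of 0.76 and a Spearman correlation of 0.75. Windows of neighbouring members overlap, so the pairs are not independent, and no test is given. The Pearson correlation was 0.73 for NR against parental 5637 on neratinib and 0.79 for NR on neratinib against untreated parental 5637. The latter shares its parental control libraries with the untreated comparison and its NR neratinib libraries with the comparison on neratinib. For the drug effect in parental 5637 the correlation was 0.05. The chromosomes named here were picked after their values were seen. All 5 members on chromosome 15 were lower in NR (BUB1B -0.93, CCNB2 -0.67, KIF23 -0.55, NUSAP1 -0.43 and PRC1 -0.31), where the other 639 tested genes of that chromosome had a median of -0.45 and 54.9% of them were lower. All 3 on chromosome 4 were higher (MAD2L1 0.57, CCNA2 0.43 and CENPE 0.42), where the other 664 genes had a median of 0.20 and 41% were higher. On chromosome 5, 3 of 4 were lower (members' median -0.48), where the other 834 genes had a median of -0.08 and 29.9% were lower, and on chromosome 20 the 3 members had a median of 0.01, where the other 473 genes stood at 0.20.

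Single members stood near their neighbourhood or departed from it. TTK on chromosome 6 stood at -0.67 and its neighbourhood of 30 genes at -0.70, PTTG1 on chromosome 5 at -0.74 and its neighbourhood at -0.50, and ESPL1 on chromosome 12 at -0.43 and its neighbourhood at -0.57. BUB1B was lower than its neighbourhood (-0.93 and -0.18), CENPF on chromosome 1 was lower where its neighbourhood was higher (-0.50 and 0.11), and CDC25B on chromosome 20 stood at -0.03 where its neighbourhood stood at 0.38. DNA copy number was not measured, and its part in these values was not tested. In OVCAR8 the correlation for untreated NR against parental cells was 0.39, over neighbourhood medians from -0.21 to 0.21 instead of -0.70 to 0.68. It was 0.42 for NR against parental OVCAR8 on neratinib and 0.53 for NR on neratinib against untreated parental OVCAR8.

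**Figure D5:**
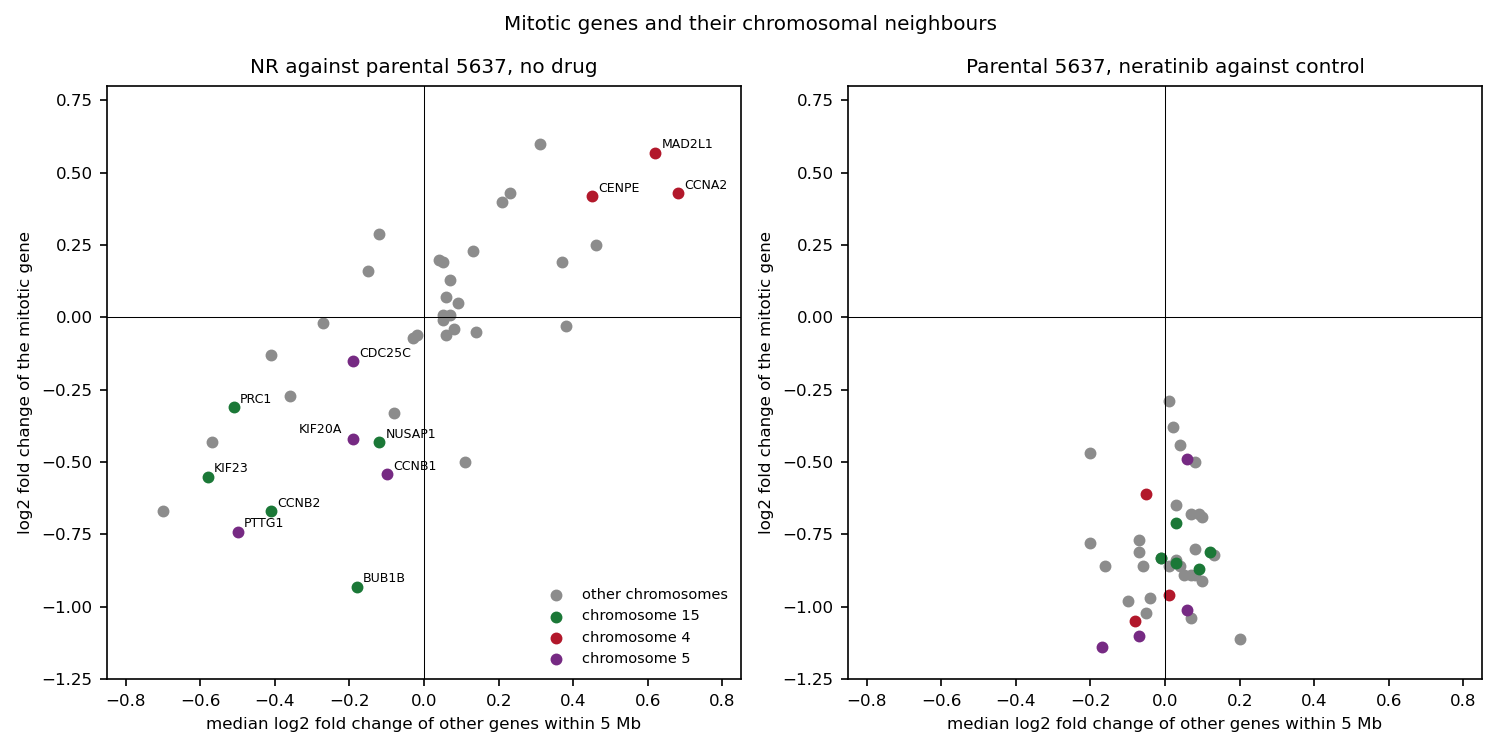
Log2 fold change of each of 41 members against the median log2 fold change of the other tested genes within 5 Mb, for untreated NR against parental 5637 (left) and for neratinib in parental 5637 (right), with members on chromosomes 15, 4 and 5 coloured. On the left the members rise with their neighbourhoods, though some such as BUB1B (-0.93, neighbourhood -0.18) lie far from the rest, while on the right all members lie between -1.14 and -0.29 at neighbourhood medians from -0.20 to 0.20.

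Without drug, NR and parental OVCAR8 differed in few of these genes. 2 of 41 members were lower in NR and 0 higher, where 4.91% of all genes were lower and 4.94% higher (9.84% in all), and the median was -0.02 (all genes -0.01). The groups did not overlap for 11 members (28.6% of all genes). NDC80 had 50, 50.1 and 52.9 CPM in NR control libraries against 63.4, 79.2 and 67.9 CPM in parental control libraries (log2 fold change -0.51, edgeR adjusted p = 0.012). CDC25B had 217, 216 and 223 CPM in NR against 254, 249 and 252 CPM in parental controls (log2 fold change -0.25, edgeR adjusted p = 0.03). Neither overlapped between the groups. CCNB1 (-0.14, 95% interval -0.38 to 0.09), CDK1 (-0.06, -0.27 to 0.15), PLK1 (0.02, -0.12 to 0.16), MKI67 (0.54, 0.01 to 1.08) and BUB3 (0.08, -0.08 to 0.24) did not pass. Without parental control replicate 2, 5 were higher (MKI67 by 0.22, CDC20 by 0.21, KIF11 by 0.20, BUB3 by 0.15 and KIF2C by 0.12) and 6 lower (NDC80 by 0.36, CDC25B by 0.21, CENPA by 0.20, NUSAP1 by 0.18, CCNA2 by 0.15 and FOXM1 by 0.14), against 11.4% of all genes in each direction. Leaving out any other single library gave 0 to 4 calls, with 0 without NR control replicate 1 or 2.

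The untreated difference between NR and parental cells was itself compared between the lines. It was higher in OVCAR8 for 10 members and lower for 7, against 14.8% and 18.1% of all genes (32.9% in all), with a median of 0.06. BUB1B differed most, by 1.12 ± 0.14 (log2, SE, edgeR adjusted p = 1.1e-06), followed by BIRC5 (-0.88), NDC80 (-0.78), CENPA (-0.77), TTK (0.70) and MAD2L1 (-0.67). NDC80 was the 1 member called in opposite directions, higher in NR 5637 by 0.25 and lower in NR OVCAR8 by 0.51. KIF23 (0.49), CCNB1 (0.38) and PRC1 (0.27) were among those higher in OVCAR8, and CCNA2 (-0.56), SPC25 (-0.58) and KIF4A (-0.28) among those lower. When parental control replicate 2 of OVCAR8 was left out, 13 were higher and 8 lower (18.6% and 20.5% of all genes), and PTTG1 stood at 0.82 (0.36 with it).

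Set against untreated parental cells, NR 5637 cells on neratinib held less of most members. This comparison shares its libraries with those above. Of 41 members 25 were lower and 6 higher, against 30.3% and 29.1% of all genes (59.4% called in all), with a median of -0.23 (all genes 0.01). The groups did not overlap for 25 members (63.5% of all genes). PTTG1 was lowest, with 114, 116 and 110 CPM in NR neratinib libraries against 207, 207 and 200 CPM in parental control libraries (log2 fold change -0.99, edgeR adjusted p = 3.4e-10), followed by BUB1B (-0.94), KIF23 (-0.81), CCNB1 (-0.77) and TTK (-0.66), and AURKB stood at -0.62 (83.9, 69.5 and 76.4 CPM in NR on neratinib, against 102, 109 and 110 CPM in parental control). SPC24 stood at -0.56 (parental control 31.1, 34.2 and 33.7 CPM), PRC1 at -0.45 (137, 143 and 138 CPM in NR on neratinib, against 175, 176 and 167 CPM), CDK1 at -0.29, MKI67 at -0.28, BUB3 at -0.26 and PLK1 at -0.23. Higher than in untreated parental cells were CENPA (0.38, with 25.3, 28.4 and 29.7 CPM in NR on neratinib against 20.5, 18 and 19.6 CPM), KIF18A (0.36, with 37, 51.5 and 51.7 CPM against 32.7, 34.5 and 31.4 CPM), CENPE (0.35, with 100, 150 and 140 CPM against 92.7, 96.8 and 87 CPM), BIRC5 (0.29), KIF4A (0.25, with 116, 131 and 121 CPM against 95.8, 93.9 and 90.8 CPM) and CCNA2 (0.22). By library size alone 15 were lower and 9 higher, with a median of -0.09 where that of all genes was 0.15.

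NR OVCAR8 cells on neratinib stood near untreated parental OVCAR8 cells. KIF11 (0.46, with 171, 174 and 171 CPM in NR on neratinib against 134, 93.5 and 133 CPM in parental control, edgeR adjusted p = 0.0069) and KIF18A (0.31) were higher, and NDC80 was lower (-0.40, with 54.5, 58.1 and 55.5 CPM against 63.4, 79.2 and 67.9 CPM, edgeR adjusted p = 0.035). These 2 higher and 1 lower of 41 compare with 6.50% and 7.35% of all genes (13.9% in all), and the groups did not overlap for 19 members (35.3% of all genes). The median was -0.01 and the range -0.47 to 0.57. CCNB1 stood at -0.14 (95% interval -0.37 to 0.09), CDK1 at -0.01 (-0.22 to 0.20), PLK1 at -0.05 (-0.20 to 0.09), MKI67 at 0.57 (0.04 to 1.10) and BUB3 at 0.04 (-0.12 to 0.20). In the fit without parental control replicate 2 the range was -0.25 to 0.34, with PTTG1 at -0.02 (-0.47 with it) and MKI67 at 0.24 (0.57 with it). In that fit 5 members were higher and 2 lower, against 12.5% and 14.6% of all genes, and the median was 0.02. Leaving out any other single library gave 1 to 6 calls.

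The members also differ in level. Per length, in RPKM, CDC20 (139 ± 2.14, SD, n = 3), TOP2A (134 ± 5.47) and TPX2 (126 ± 4.63) were highest in parental 5637 controls. CDC20 and TOP2A differed by less than the spread of TOP2A. PTTG1 (102 ± 1.83) and CCNB1 (83.3 ± 2.07) followed, each apart from the next. SPC25 (2.78 ± 0.329) was lowest, below CDC25C (6.72 ± 0.247). KIF18A and MAD2L1 (7.04 each) differed from each other and from CDC25C by less than the SD of KIF18A (0.334). In parental OVCAR8 controls TPX2 (183 ± 3.64) and CDC20 (158 ± 6.55) led, while PTTG1 (128 ± 52.6) could not be placed against CDC20 or CCNB1 (108 ± 13.9), since replicate 2 had 378 CPM of it and the other controls a mean of 196 CPM. SPC25 (3.30 ± 0.239) was lowest here too.

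CCNB1 was used to ask which genes share a pattern, by the Pearson correlation of the 8 group means of log2 CPM after centring each line, over 9792 genes with a mean of at least 5 CPM in both lines. The members most like it were AURKB (r = 0.991), NUSAP1 (0.988) and PRC1 (0.98). The members least like it were CDC25B (0.371), KIF18A (0.45) and CENPA (0.472), so the list did not share 1 pattern throughout. Over all genes the 5 most alike were AURKB, NUP37 (0.99), a nuclear pore subunit, CTNNBL1 (0.988), NUSAP1 and HMGB1 (0.985), a chromatin protein. With 8 group means these values are a description. The OVCAR8 parental control mean includes replicate 2, whose log2 ratio to the other controls was 0.31 for CCNB1 and -1.45 to 0.95 over the members. The likeness was not computed without that library.

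Other mitotic and cell cycle genes outside the 42 were read from lists drawn up by function. In parental 5637 on neratinib, all 20 other spindle and cytokinesis genes fell (median -0.69), as did all 8 condensin subunits (median -0.77), 10 of 13 inner centromere genes (median -0.50), 7 of 12 tested outer kinetochore genes (median -0.32) and 20 of 25 tested DNA replication genes (median -0.68), with 0 risen in any of these lists, where 23.5% of all genes fell. In parental OVCAR8 14 of 20, 8 of 8, 13 of 13, 10 of 12 and 23 of 25 fell in the same order of lists, with 0 risen, where 16.3% of all genes fell, and medians of -0.49, -0.59, -0.72, -0.54 and -0.71. Condensin genes NCAPG and NCAPH, which compact chromosomes, fell by 1.03 each in parental 5637 and by 0.86 and 0.83 in parental OVCAR8.

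Of 18 genes of the anaphase-promoting complex and its partners, 10 fell and 2 rose in parental 5637 (median -0.25), and 7 fell and 1 rose in parental OVCAR8 (median -0.34), where 23.5% of all genes fell and 23.9% rose in parental 5637 and 16.3% fell and 16.2% rose in parental OVCAR8. The ubiquitin-conjugating enzyme UBE2C, with 121 CPM on neratinib and 218 CPM in control in parental 5637 (group means), fell by 0.95, and the subunit ANAPC16 rose by 0.42. Cohesin and its regulators fell in 5 of 11 cases in parental 5637 and in 3 of 10 in parental OVCAR8. Of the MuvB and E2F regulators 10 of 17 fell and 0 rose in parental 5637, and 4 fell and 2 rose in parental OVCAR8, near the shares of all genes in that line. There RBL2, a pocket protein of the repressive form of the complex, rose by 0.49. MYBL2, the activating partner of MuvB, fell by 1.19 in parental 5637 (173 CPM on neratinib and 368 CPM in control, group means) and by 0.74 in parental OVCAR8 (190 and 295 CPM). In NR OVCAR8 on neratinib edgeR called 0 genes of these 8 lists, where it called 1.39% of all genes. In NR 5637 on neratinib 7 of 8 condensin subunits and 16 of 25 replication genes fell (1 replication gene rose), as did 6 of 18 genes of the anaphase-promoting complex (1 rose), 6 of 17 MuvB and E2F regulators (1 rose), 5 of 20 other spindle and cytokinesis genes, 4 of 12 outer kinetochore genes, 2 of 13 inner centromere genes and 1 of 11 cohesin genes, where 21.1% of all genes fell and 18.4% rose.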

How the data were processed

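Messenger RNA of 24 libraries was measured by paired-end sequencing of TruSeq stranded libraries on a HiSeq3000, per the labels' protocols. The authors deposited raw counts of reads per gene in 1 table, with gene symbols, hg19 coordinates and gene lengths per the file header. FastQC, STAR 2.5.3a, featureCounts 1.15.2, DESeq2 1.18.1 and hg19 are named in the submitters' processing notes with no order. The strand setting of the counting is not given in the sources used here, so a gene and an overlapping antisense gene cannot be told apart. Library totals were 23.8 to 48.5 M, and 0 sample columns fell outside the labels.

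From the counts, each line was fitted with its 12 libraries by edgeR 4.0.16 in R 4.3.3 (limma 3.58.1), with filtering on low counts by filterByExpr, TMM scaling, the quasi-likelihood F-test and Benjamini-Hochberg adjustment over all genes tested (18307 in 5637, 18072 in OVCAR8, 20250 in the fit of both lines). Differences between drug effects were tested as interaction terms. CPM values divide by the library total without TMM, and RPKM also by the length in the table, so fitted fold changes differ from ratios of CPM by the scaling. DESeq2 1.42.0, other scalings, no filter, 1 fit of all libraries, a replicate block and leaving out each library were the alternatives. The procedure was tested on simulated data with 1.5-fold and 2-fold changes put in and the same spread for all genes. Of the 1.5-fold changes it found 97.9% for the drug in parental 5637 and 65.2% in parental OVCAR8. For the interaction it found 74.5% in 5637 and 18.2% in OVCAR8, and for the line difference in parental cells 31.7%. Of the 2-fold changes it found 71.3% for the OVCAR8 interaction and at least 94.9% for the rest of these comparisons.

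All members are named by class. The rule for values per library took the called member with the largest change in each class (mean of at least 5 CPM), CCNB1, CDK1, PLK1, MKI67 and BUB3, and members called against the majority. Some of these are given as fold changes only, and values of some further members are added. Promoters are shown for up to 6 members with TTTGAA, by mean CPM. The members and lists were chosen with earlier results of these data known. Comparison of members with neighbouring genes and with gene length was added after the values were seen.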

Additional observations from a re-analysis of the deposited data

Results flagged for a closer look

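The drug effect differed between NR and parental cells for 40 of 41 members in 5637 (13.9% of all genes), with KIF20A furthest apart (1.00 on the log2 scale). In OVCAR8 it differed for 29 of 41 (8.83% of all genes), and BIRC5 was the furthest of those that passed (0.99). Without parental control replicate 2 BIRC5 stood at 0.79 and MAD2L1 was furthest at 0.93. These differences were tested as interaction terms by edgeR. Between the lines, the drug effect in parental cells differed for 2 of 41 members (10.3% of all genes), KIF20A most (0.47). The drug effect in NR cells differed for 3 of 41 (9.84% of all genes), MAD2L1 most (0.48). The untreated difference between NR and parental cells differed between the lines for 17 of 41 members (32.9% of all genes), BUB1B most (1.12).

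Counts also lay outside the entries used. Entries of the symbol KIFC1 on the contigs GL000255.1 and GL000256.1 held up to 84 and up to 8 counts in a library, against 0 to 6 at the chromosome 6 entry. An entry of SPC25 on the contig GL383522.1 held up to 17 counts in a library, which were not added to the SPC25 values.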

How the results depend on the processing

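The falls in parental cells held under the alternatives run: 41 members in 5637 in all of them, and 34 to 41 in OVCAR8. By library size alone the median of all genes moved to 0.13 in parental 5637 (0.02 by TMM) and rising genes made up 64.2% of calls (50.4% by TMM). The same scaling gave 62.6% in place of 49.8% in parental OVCAR8, 62.3% in place of 49.1% for NR 5637 on neratinib against untreated parental, 40.5% in place of 52.4% for the OVCAR8 interaction and 32.4% in place of 51.4% for the line difference in NR cells. Called members in NR 5637 were 13 by library size alone and 10 in a joint fit of all libraries (22 by the test as reported, 16 to 22 without 1 library). Leaving out 1 library gave 0 to 7 in NR OVCAR8, 0 to 11 for untreated NR against parental OVCAR8 (1 by library size alone), 1 to 7 for NR OVCAR8 on neratinib against untreated parental (6 in the joint fit), 1 to 11 for the line difference in parental cells (1 by library size alone, 6 by DESeq2) and 1 to 15 for that in NR cells (0 by library size alone, 6 by DESeq2, 1 without the filter). Replicate numbers did not pair the samples (same-number correlations -0.56 to 0.40 in 5637 and -0.27 to 0.25 in OVCAR8), and the replicate block moved the counts to 1 and 1 for NR OVCAR8 against untreated parental, without and with drug, and no other count of members by over 1.5 times. Values near 0 changed sign, with the range over fits that left out 1 library: untreated NR against parental 5637 for CDK1 (-0.10 to 0.07, 0 by library size alone, 0.01 in the joint fit) and MKI67 (-0.01 to 0.04, 0 in between); the same on neratinib for TTK (-0.03 to 0.10, with -0.02 and -0.01) and ESPL1 (-0.02 to 0.09); neratinib in NR OVCAR8 for CCNB1 (-0.02 to 0.01, 0 by DESeq2 and by its size factors, -0.01 without parental control replicate 2) and MKI67 (0 to 0.05); untreated NR against parental OVCAR8 for CCNB1 (-0.23 to 0.02), CDK1 (-0.12 to 0.08) and PLK1 (-0.02 to 0.06); and NR OVCAR8 on neratinib against untreated parental for CCNB1 (-0.23 to 0.02), CDK1 (-0.08 to 0.11, 0.06 by library size alone), PLK1 (-0.09 to -0.02, 0.01 by library size alone) and BUB3 (-0.02 to 0.10). Counts over all genes moved by over 1.5 times as follows. The 5637 interaction had 1459 in the joint fit (2540 as reported). Without parental control replicate 2, OVCAR8 had 9117 for the drug in parental cells (5868 with it), 10286 for NR against parental on neratinib (5596), 3869 for the line difference in parental cells (2084) and 4141 for that in NR cells (1993). NR OVCAR8 on drug had 43 to 3950 without 1 library, 800 by DESeq2, 98 with the block and 488 in the joint fit (251 as reported). Untreated NR against parental OVCAR8 had 993 to 4225 without 1 library and 2884 in the joint fit (1779), NR on drug against untreated parental 1199 to 5030 and 3960 (2503), and the OVCAR8 interaction 790 to 6076, 2520 by DESeq2 and 2436 in the joint fit (1595). The cause of these changes was not tested. Each group holds 3 libraries, which may be technical replicates.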

Other observations

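Among genes outside the 42, the centromere protein CENPW and the replication factor MCM10 fell further in parental 5637 on neratinib than any member, by 1.49 and 1.46. In parental OVCAR8 they fell by 1.27 and 1.05. The shugoshin SGO1 and sororin (CDCA5), which guard cohesin in mitosis, fell by 0.85 and 0.76 in parental 5637 and by 0.63 and 0.67 in parental OVCAR8. The drug effect was higher in NR than in parental 5637 for 19 of 20 other spindle and cytokinesis genes, 7 of 8 condensin subunits, 19 of 25 DNA replication genes, 6 of 12 outer kinetochore genes, 5 of 13 inner centromere genes, 4 of 18 genes of the anaphase-promoting complex, 2 of 11 cohesin genes and 3 of 17 MuvB and E2F regulators, where 7.39% of all genes were higher. In OVCAR8 it was higher for 11 of 20 other spindle and cytokinesis genes, 5 of 8 condensin subunits, 16 of 25 replication genes, 7 of 12 outer kinetochore genes, 9 of 13 inner centromere genes, 1 of 18 genes of the anaphase-promoting complex, 3 of 10 cohesin genes and 1 of 17 MuvB and E2F regulators, where 4.62% of all genes were higher. Lower effects numbered 0 in each of these lists in both lines.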
